A study of Caenorhabditis elegans with 59 samples.

Results

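A set of 155 piRNAs was examined whose read counts in ebax-1 gravid adults were at most 0.5 times those in wild-type adults, out of 15363 piRNAs in the count table. Counts were scaled to 1000000 piRNA reads in each library (CPM). A piRNA was a member if it had at least 10 and under 200 CPM in both wild-type libraries and if its higher ebax-1 value was at most 0.5 times its lower wild-type value. The members were thus selected on their measured CPM in this contrast, and their levels and fold changes are given as a description. Position, strand, gene context and the values of neighbouring piRNAs that the level limits left out played no part in the choice. Of the 15363 piRNAs, 6778 met the wild-type limits and 155 of these were members, a share of 2.29%. With the genotypes exchanged, 6202 piRNAs met the limits in the ebax-1 libraries, and 0 were at least 2-fold higher there by the same rule.

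The series is small RNA sequencing of whole worms, and piRNA counts were used here for gravid adults: 2 libraries of ebax-1(tm2321), strain CZ9907, and 2 libraries of wild type, strain N2. EBAX-1 is the worm ortholog of ZSWIM8, a substrate receptor of a ubiquitin ligase that acts on Argonaute proteins loaded with certain miRNAs. By the study's methods, both genotypes hatched without food and then fed on E. coli OP50 at 20 °C for about 68 h. The labels give no other allele or agent for either. The study states that its adult miRNA results were reanalysed from earlier published data, keeping only the 2 replicates with mutants of strain CZ9907. Whether the feeding and culture time above also hold for those libraries is not stated. All mutant values came from 1 strain, so the libraries used here cannot tell apart the ebax-1 allele and any other difference of that strain from N2. The study itself asked whether the low piRNAs belonged to this line rather than to loss of ebax-1, and looked at adults of a second allele, ju699, which were not analysed here. Every value given below for ebax-1 is therefore a value of strain CZ9907, and none is attributed to the loss of EBAX-1. RNA came from whole animals carrying germ cells and embryos, so fewer cells of a type and less RNA per cell cannot be told apart either. The study describes its replicates as biological, and with 2 libraries of each genotype the p-values rest on the spread within these 2 pairs. The columns of the piRNA table name strain and replicate letter but no stage, and they were taken as gravid adults because the study describes its piRNA counts for that stage.

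piRNAs of C. elegans, also called 21U-RNAs, are 21 nt long, begin with a uridine and are bound by the Piwi Argonaute PRG-1 in the germline, where they direct silencing of transposons and other foreign sequence. Most are made from short, separately transcribed genes with their own upstream motif, and these genes are crowded into broad domains of chromosome IV, within introns and between genes. A neighbour of a piRNA gene is thus usually another piRNA gene with a promoter of its own. Of the piRNAs counted here, 95.8% (14714) lay on chromosome IV, and 3.74% (575) lay in the stretch that held most members.

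The ebax-1 libraries held 1722996 and 2703455 piRNA reads, against 2088539 and 3918670 in wild type, so that 10 CPM corresponded to 17.2 to 39.2 reads. The piRNA total was 22.6 and 17.8 reads per 100 miRNA reads in ebax-1 adults and 19.7 and 19.1 in wild-type adults, and the ranges overlapped. The replicates of ebax-1 were farther apart than those of wild type: the median absolute difference between replicates was 0.71 on the log2 scale in ebax-1 and 0.26 in wild type, over 9151 piRNAs with at least 10 reads in every library. Germline and embryo miRNAs summed to 68090 to 143769 reads per 1000000 miRNA reads in ebax-1 and 53326 to 62470 in wild type. Of the 10 in that list, 7 were above both wild-type libraries in both ebax-1 libraries, 1 was below and none was at 0. The 1 below was miR-70, at 19351 to 22574 in ebax-1 and 24945 to 29845 in wild type. All others in the list, miR-35 to miR-43, are miRNAs that the study found sensitive to loss of EBAX-1. The sum therefore cannot show the amount of germline. The marker of muscle, miR-1, was at 21507 to 21760 in ebax-1 and 21808 to 22825 in wild type, and the 4 of neurons and glia summed to 8702 to 10358 in ebax-1 and 10815 to 11502 in wild type. The part of these differences in the results below was not tested.

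The members were piRNAs of middling level in wild type. Their median was 10.4 and 12.6 CPM in the 2 ebax-1 libraries and 36.9 and 41.1 CPM in the wild-type libraries. Together they summed to 2009 and 2543 CPM in ebax-1 adults, against 7432 and 8086 CPM in wild-type adults. The ratio of mean ebax-1 to mean wild-type CPM had a median of 0.296, with quartiles of 0.244 and 0.326 and a highest value of 0.458. Among the other 6522 piRNAs within the limits and outside the main cluster defined below, the median ratio was 1.07. The 3 members nearest the limit, 21ur-5282, 21ur-8277 and 21ur-12544, had a higher ebax-1 value of 0.499 times the lower wild-type value. The 3 nearest on the other side, 21ur-8708, 21ur-2202 and 21ur-6981, were at 0.505, 0.507 and 0.508, so the limit cut through a continuous run of values.

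**Figure D1:**
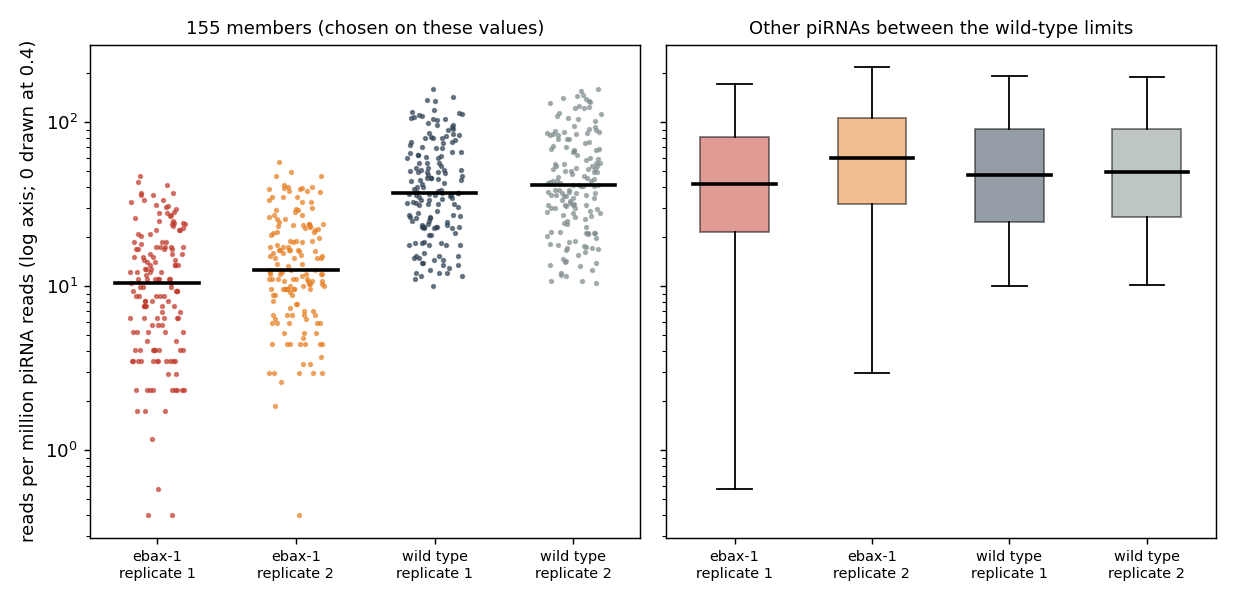
Reads per 1000000 piRNA reads (log axis) in each library, ebax-1 left of wild type. Left, each point is 1 of the 155 members and the bar is the median (10.4 and 12.6 CPM in ebax-1, 36.9 and 41.1 CPM in wild type). Right, boxes span the quartiles of the other piRNAs within the wild-type limits, with whiskers to 1.5 times the box, whose medians were 41.8 and 60.7 CPM in ebax-1 and 47.9 and 49.5 CPM in wild type.

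What the members shared, and the rule did not use, was their place in the genome. All 155 were placed by name on the WBcel235 annotation, and all 155 lay on chromosome IV, as did 6777 of the 6778 piRNAs within the limits. Windows of 20 kb in which at least 3 members made up 50% or more of the piRNAs within the limits were joined across gaps of up to 100 kb, which gave a single stretch, IV:4840001-5220000, called the main cluster here. It held 141 members, a share of 91.0%, from 21ur-8591 to 21ur-7478. A further 7 members lay just to its left, from 21ur-6241 at IV:4816410-4816430 to 21ur-5552 at IV:4839780-4839800. These 148 (95.5%) spanned 0.401 Mb, with a median of 1438 bp between consecutive members and a largest gap of 21296 bp. Of the 242 piRNAs within the limits in the main cluster, 141 were members and 101 were not. The high share of members there follows from the way the stretch was drawn and is no separate result.

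The border members show the levels at both ends. 21ur-8591, the first, in an intron of tat-2 (a phospholipid-transporting ATPase), had 5.80 and 12.6 CPM in ebax-1 adults and 25.9 and 31.1 CPM in wild-type adults. 21ur-7478, the last, at IV:5217224-5217244 between genes, had 23.8 and 23.3 CPM in ebax-1 and 82.4 and 123.8 CPM in wild type. The ratios of the means were 0.323 and 0.229. Both are members, so the gap between the groups was set by the rule.

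piRNAs were also summed in 20-kb windows, whatever their level. In the 19 windows of the main cluster the ratio of ebax-1 to mean wild-type CPM ran from 0.294 to 0.383, but these sums include the members, whose low values are fixed by the rule and which also placed the windows. With the members left out, the ratio ran from 0.296 to 0.466 with a median of 0.406, and all 19 windows were under 0.5. By mutant replicate it ran from 0.211 to 0.354 in ebax-1 replicate 1 and from 0.335 to 0.620 in replicate 2, where 9 of the 19 were under 0.5. Summing only the piRNAs outside the level limits, on which the ratio rule was never applied, the ratio ran from 0.272 to 0.603 with a median of 0.357, and 17 of the 19 were under 0.5. These sums include 6 piRNAs left out for at least 200 CPM in a wild-type library. Over the whole cluster, the ratio of sums was 0.293 for those 6 and 0.401 for the piRNAs under 10 CPM. In the 246 other windows of chromosome IV with at least 100 CPM in each wild-type library, the median was 1.02 and the quartiles 0.988 and 1.06. Only 2 of these 246 were under 0.5, at 0.361 and 0.393, and they were the 2 windows directly left of the main cluster.

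**Figure D2:**
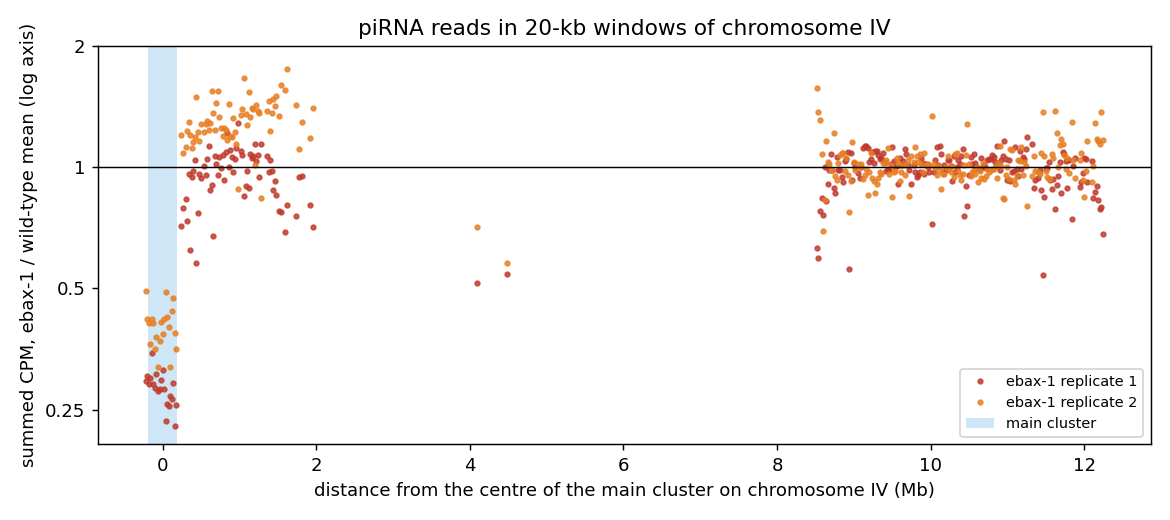
Summed CPM of all piRNAs in each 20-kb window of chromosome IV, as the ratio of each ebax-1 library to the wild-type mean (log axis), by distance from the centre of the main cluster in Mb. Windows of the main cluster (shaded), whose sums include the members, lie between 0.227 and 0.491, and most others lie near 1.

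The right border fell in a gap with few piRNAs. Beyond 21ur-7478, 54 piRNAs lay within 100 kb and 0 were members. Of these, 26 had a mean of at least 10 CPM in wild type, starting with 21ur-8445 at a distance of 12.2 kb, and their ratios ran from 0.615 to 1.39 with a median of 0.895. In the gap between them, 21ur-6927, an intronic piRNA of thn-6, had 0 reads in both ebax-1 libraries and 7.18 and 5.36 CPM in wild type. Against a floor of 3 reads over both ebax-1 libraries (0.678 CPM), it was at least 8.84-fold lower in ebax-1. 21ur-13900, in the same gap, had 0 and 2 reads in ebax-1 and 5 and 21 in wild type, or 2.39 and 5.36 CPM. Where the low values end on the right was not tested. The left border could not be set as closely: in the 200 kb left of 21ur-6241 only 12 piRNAs are annotated, and 1 of them had a mean of 10 CPM in wild type. This was 21ur-9743, at IV:4786213-4786233, with 3.48 and 5.92 CPM in ebax-1 and a wild-type mean of 10.6 CPM, a ratio of 0.443. Of those at lower level, 21ur-10512 and 21ur-10967 had ratios of 0.354 and 0.258. 21ur-7600 and 21ur-13615 were at 0.797 and 0.582, and their groups overlapped. Low values were thus also found left of 21ur-6241, and where they begin was not tested.

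**Figure D3:**
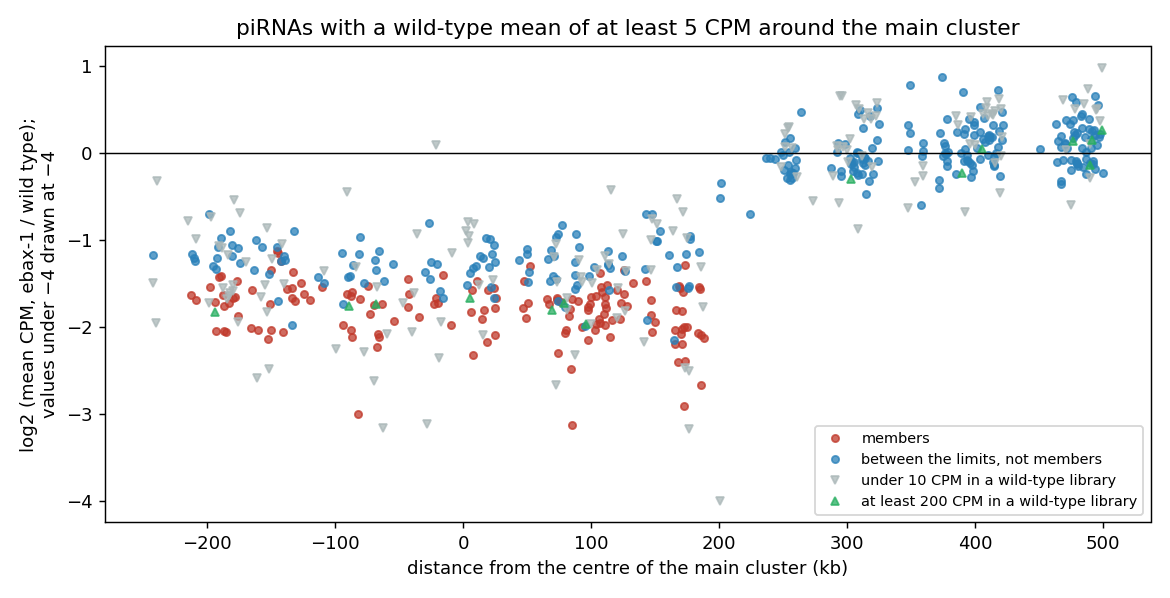
Log2 ratio of mean ebax-1 to mean wild-type CPM for piRNAs with a wild-type mean of at least 5 CPM, by distance in kb from the centre of the main cluster. Members, piRNAs within the limits that were not members, and piRNAs left out for a low or a high level are all below 0 inside the cluster with 1 exception at a low level, and values lie on both sides of 0 beyond the right border.

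The piRNAs inside the main cluster that the rule did not pick were low as well. Of the 101 within the limits that were not members, the ratio of means had a median of 0.413 and a highest value of 0.613, and 86 were under 0.5. Both ebax-1 values were below both wild-type values for 99 of the 101, against 322 of the 6522 non-members within the limits outside the cluster (4.94%). ebax-1 replicate 2 held the higher mutant value for 92 of the 101 non-members, and for 112 of the 155 members. The 5 with a ratio nearest 1 were 21ur-11876 (0.613), 21ur-718 (0.612), 21ur-7215 (0.572), 21ur-3953 (0.560) and 21ur-152 (0.537).

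21ur-718 shows the spread at low counts. It had 2.90 and 12.6 CPM in ebax-1 adults, from 5 and 34 reads, and 14.8 and 10.5 CPM in wild-type adults, from 31 and 41 reads, so the groups overlapped. 21ur-3953, at 16.3 and 37.4 CPM in ebax-1 and 46.4 and 49.3 CPM in wild type, did not overlap but missed the ratio limit in replicate 2.

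A test over single piRNAs was made with edgeR's quasi-likelihood test on the 12444 piRNAs read at least once in each of the 4 libraries. It called 42 piRNAs lower in ebax-1 at an adjusted p of 0.05, a share of 0.338% of those tested. It called 0 higher, where 71 had an unadjusted p under 0.05 and DESeq2 also called 0. Of the 42, 37 lay in the main cluster and 30 were members. The members' calls rest on the contrast that chose them and are no test of the set. Of the 155 members, 153 met that filter and were fitted, and their median log2 fold change was -1.79, beside 0.01 over all piRNAs tested. These counts depended on the libraries: 390 lower and 106 higher without ebax-1 replicate 1, 200 and 22 without ebax-1 replicate 2, and 0 and 0 without either wild-type replicate. DESeq2 called 79 lower, and edgeR without the TMM scaling called 2.

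The cluster's rows of that fit to which the ratio rule was not applied were its piRNAs outside the level limits. Of these 333 piRNAs, 32 had no read in any library and 163 were fitted, 157 of them with a log2 fold change below 0. Their median was -1.37, and 7 of the 163 were called lower (4.29%), against 5 of 12040 outside the cluster (0.0415%) and 0.338% over all piRNAs. Without each ebax-1 library in turn 26 and 12 were called, and without either wild-type library 0. The 6 with a log2 fold change above 0 were all under 10 CPM in a wild-type library. Of the 7 calls, 5 were among the 6 piRNAs with at least 200 CPM in a wild-type library. Those were set apart by a high wild-type value, so their calls are no separate test. Of the 157 fitted piRNAs under 10 CPM in a wild-type library, 2 were called lower (1.27%), and their median log2 fold change was -1.33.

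The 6 piRNAs of the cluster above 200 CPM in a wild-type library were the most deeply counted, and their values lay close together. 21ur-2943, between genes, had 76.6 and 96.2 CPM in ebax-1 adults and 311 and 261 CPM in wild-type adults, a log2 fold change of -1.78 ± 0.45 (SE; edgeR adjusted p = 0.0349). 21ur-5230, in an intron of C02B10.3, had 57.5 and 88.8 CPM in ebax-1 and 256 and 255 CPM in wild type (-1.87 ± 0.45; edgeR adjusted p = 0.0272). 21ur-1688 had 52.8 and 46.6 CPM in ebax-1 and 157 and 231 CPM in wild type (-2.00 ± 0.46; edgeR adjusted p = 0.0179). In each of these the groups were well apart. 21ur-9723 in str-168 and 21ur-2441 in str-164, both hosts being genes of chemoreceptor type, were also called, at -1.79 and -1.77. 21ur-7843 was not, at -1.71 (edgeR adjusted p = 0.0536), with 61.5 and 56.2 CPM in ebax-1 and 159 and 215 CPM in wild type. Left of the cluster, 21ur-103 in tat-2, left out for 211 CPM in a wild-type library, had 44.1 and 67.3 CPM in ebax-1 and 211 and 185 CPM in wild type and was called at -1.89 (edgeR adjusted p = 0.0272).

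At the low end, 2 piRNAs under the limit were called. 21ur-10998, in an intron of tni-4 (troponin I), had 1.16 and 0.740 CPM in ebax-1 adults and 10.1 and 7.15 CPM in wild-type adults, from 2 and 2 reads against 21 and 28, and the log2 fold change of -3.22 was the lowest of all 12444. 21ur-4237 was at -3.08. Both were picked out once their values were known.

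**Figure D4:**
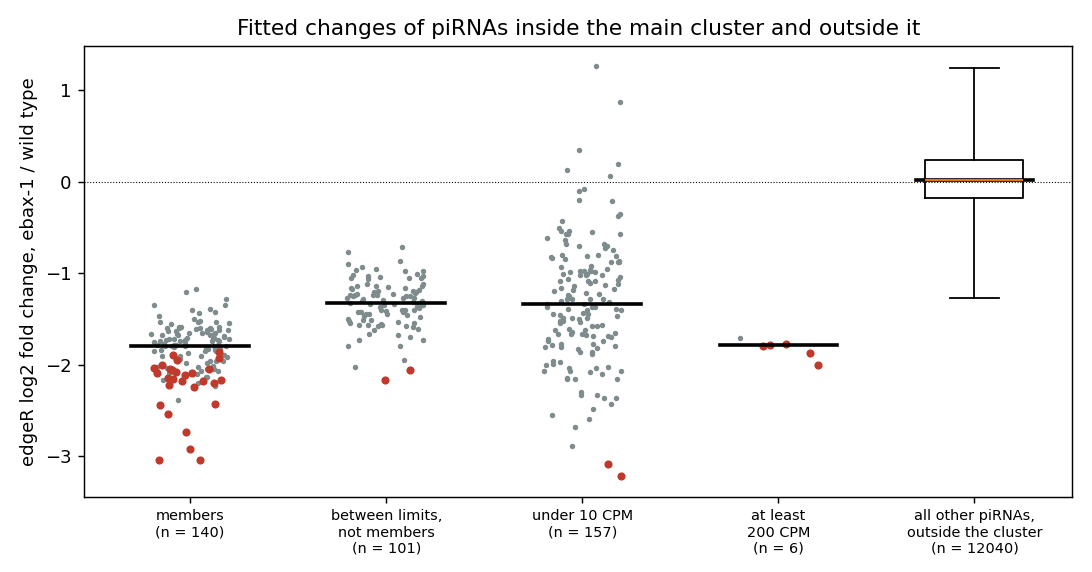
edgeR log2 fold changes, ebax-1 over wild type, of the fitted piRNAs of the main cluster by class and of all piRNAs outside it. Points are piRNAs, red where the adjusted p is under 0.05, bars are medians (-1.80 for members, -1.32, -1.33 and -1.79 for the other classes, 0.02 outside), and the box has whiskers at the 1st and 99th percentiles.

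Among the members themselves, those of highest wild-type level carry the least counting error. 21ur-5533, at IV:5199624-5199644 between genes, led them with 32.5 and 57.0 CPM in ebax-1 adults, against 158 and 158 CPM in wild-type adults. 21ur-9276, at IV:4852890-4852910 had 37.1 and 39.6 CPM in ebax-1 and 137 and 145 CPM in wild type. These 2 piRNAs, near opposite ends of the cluster, had ratios of 0.282 and 0.272. 21ur-4056, close to 21ur-9276, had 47.0 and 41.1 CPM in ebax-1 and 142 and 139 CPM in wild type. 21ur-3864, in an intron of soc-2 (a leucine-rich repeat protein of Ras signalling), had 42.9 and 39.6 CPM in ebax-1 and 135 and 141 CPM in wild type.

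21ur-6508 lies 166 bp from 21ur-5533 on the same strand, and had 30.8 and 34.8 CPM in ebax-1 adults against 114 and 154 CPM in wild-type adults. The other high members were 21ur-2669, 21ur-1347, 21ur-6626 and 21ur-4762 of the cluster, with ratios of 0.230, 0.233, 0.285 and 0.359, and 21ur-1080, which lies elsewhere and is described below. Of these 10, edgeR called 7, and 21ur-3864, 21ur-4056 and 21ur-4762 were not called, at adjusted p of 0.0503, 0.0613 and 0.134. Over all piRNAs tested 0.338% were called lower, but the calls of these 10 rest on the contrast that chose them and are no test.

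The lowest ratios belonged to piRNAs with few reads. After 21ur-9310, which had none in ebax-1, came 21ur-3769 in tkr-3 (a tachykinin receptor-like gene), with 0.580 and 2.96 CPM in ebax-1 adults and 14.4 and 16.6 CPM in wild-type adults. 21ur-8180 in str-169 had 2.32 and 2.96 CPM in ebax-1 and 18.2 and 24.2 CPM in wild type, and 21ur-13589 had 1.74 and 2.96 CPM in ebax-1 and 15.3 and 20.2 CPM in wild type. Each of these ebax-1 values stands for 1 to 8 reads, and counting error alone is wide there. 21ur-12256, in Y59E9AL.4, had 5.80 and 5.18 CPM in ebax-1 and 27.3 and 42.6 CPM in wild type, a ratio of 0.157.

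Some members overlap each other. There were 3 such pairs, all on the same strand and offset by 4 or 5 nt, so that their reads differ in both ends. 21ur-13589 overlaps 21ur-3986, which had 25.0 and 18.5 CPM in ebax-1 adults and 72.8 and 101 CPM in wild-type adults. 21ur-3769 overlaps 21ur-3365, with 9.29 and 15.2 CPM in ebax-1 and 35.4 and 43.1 CPM in wild type. 21ur-7327 had 33.7 and 35.1 CPM in ebax-1 and 104 and 113 CPM in wild type, and its partner 21ur-10611 had 3.48 and 2.96 CPM in ebax-1 and 13.4 and 11.99 CPM in wild type. All 6 are members, so the gap between the groups was set by the rule for each.

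Members lay on both strands and in every kind of gene context. Of the 155, 72 lay on the plus and 83 on the minus strand, and both strands were interleaved. In the main cluster the 102 plus-strand piRNAs within the limits had a median ratio of 0.336 and the 140 minus-strand ones 0.327. The 117 in introns were at 0.328, the 111 between genes at 0.341 and the 9 in exons at 0.300. piRNAs on the same strand as their host gene (65) and on the opposite strand (61) were at 0.320 and 0.328. The left and right parts of the cluster, split at its midpoint, were at 0.337 and 0.331. Single piRNAs ran from 0.114 to 0.613, and the differences between these medians, which include the members, were not tested.

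Membership varied with wild-type level. Of the 81 piRNAs of highest level within the limits (43.4 to 158 CPM), 60 were members (74.1%), and of the 81 of lowest level (10.6 to 23.6 CPM), 34 were (42.0%). The median ratios were 0.313 and 0.342. The rule sets the higher ebax-1 value against the lower wild-type value, which wider counting error at low level makes harder to meet. How far this set the difference in membership was not tested.

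Introns held 79 of the 155 members (51.0%), against 34.4% of the 6522 other piRNAs within the limits outside the cluster. The share was 49.5% among the cluster's 101 non-members within the limits. Members lay in 29 host genes. soc-2 held 21, of 27 piRNAs within the limits and 52 annotated there, 7 on the plus and 14 on the minus strand, with ratios of 0.230 to 0.459. tat-2, at the left end, held 10 of 17 within the limits, and tkr-3, C02B10.3 and Y59E9AL.4 held 5 each. lam-1, which codes for a laminin subunit of basement membranes, held 4 of 8, and 9 str genes, which code for chemoreceptors, held 16 members. Levels of the host mRNAs were not analysed here.

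The remaining 7 members lay far from the main cluster, at 3 places on the same chromosome. The largest group was 4 members within 6.63 kb in introns of dnbp-1 (IV:13964356-13979847, minus strand), 21ur-1080, 21ur-7241, 21ur-4308 and 21ur-6895. 21ur-1080 had 17.4 and 37.7 CPM in ebax-1 adults and 106 and 133 CPM in wild-type adults. 21ur-7241 had 9.87 and 21.5 CPM in ebax-1 and 65.1 and 53.6 CPM in wild type. 21ur-4308 had 13.3 and 32.6 CPM in ebax-1 and 81.4 and 78.6 CPM in wild type, and 21ur-6895 had 9.29 and 15.9 CPM in ebax-1 and 62.2 and 52.3 CPM in wild type. For each of the 4, ebax-1 replicate 1 was the lower of the mutant pair.

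The other piRNAs of dnbp-1 were not members because of their level. 21ur-6566, 21ur-5985 and 21ur-8253 had ratios of 0.159, 0.185 and 0.170, below those of the 4 members (0.220 to 0.287). 21ur-15438 had no read in any library. 21ur-12120 had 0 reads in both ebax-1 libraries and only 1 and 3 in wild type. 21ur-6566 had 45.9 and 22.2 CPM in ebax-1 adults and 209 and 220 CPM in wild-type adults, a log2 fold change of -2.68 ± 0.48 with the smallest adjusted p of the whole fit, 0.000296 by edgeR. 21ur-5985, which overlaps 21ur-1080 on the other strand, had 43.5 and 26.3 CPM in ebax-1 and 166 and 211 CPM in wild type (-2.46 ± 0.48; edgeR adjusted p = 0.00163). In these 2 replicate 2 was the lower of the mutant pair, unlike in the 4 members. 21ur-8253 had 0.580 and 1.85 CPM in ebax-1 and 7.18 and 7.15 CPM in wild type, and edgeR did not call it (adjusted p = 0.0706). All 3 were picked out once their values were known.

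Of the 9 piRNAs annotated in dnbp-1, 7 were fitted and 4 were called, and the 5 that were not members summed to 90.0 and 50.3 CPM in ebax-1 adults against 383 and 438 CPM in wild-type adults, a ratio of 0.171. Most of that sum came from 21ur-6566 and 21ur-5985, left out only for a high wild-type value. The calls were of these and of the members 21ur-1080 and 21ur-6895, so neither sum nor calls are a separate test of the group. On either side the values were those of the rest of the chromosome. In the 12 kb left of the gene, 33 piRNAs with at least 10 CPM in wild type had a median ratio of 0.998, and in the 12 kb to the right 19 had a median of 0.980. The lowest single ratios there were 0.636 and 0.727, and 0 of either side were called.

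The second group was a pair, 21ur-7616 and 21ur-11135, on the plus strand 95 bp apart between sru-21, of the chemoreceptor families, and fbxa-98, an F-box gene. 21ur-7616, at IV:13632994-13633014, had 3.48 and 5.92 CPM in ebax-1 adults and 23.0 and 19.6 CPM in wild-type adults. 21ur-11135, at IV:13633089-13633109, had 17.4 and 25.5 CPM in ebax-1 and 56.5 and 56.4 CPM in wild type. Neither was called by edgeR (adjusted p = 0.0695 and 0.319).

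The piRNAs around the pair differed by distance. Within 1 kb of its midpoint lay 3 other piRNAs, which summed to 5.22 and 12.2 CPM in ebax-1 adults against 31.6 and 22.2 CPM in wild-type adults. Only 1 of them had a wild-type mean of at least 10 CPM, 21ur-5399, with 4.06 and 9.62 CPM in ebax-1 and 23.9 and 17.4 CPM in wild type. From 1 to 8 kb, 16 such piRNAs had a median ratio of 0.749 and a range of 0.357 to 1.00. From 8 to 12 kb, 12 had a median of 0.949 and a range of 0.718 to 1.29. 21ur-2202, one of the 3 piRNAs just outside the ratio limit, lies on the right flank, with 4.64 and 7.77 CPM in ebax-1 and 15.3 and 19.4 CPM in wild type.

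**Figure D5:**
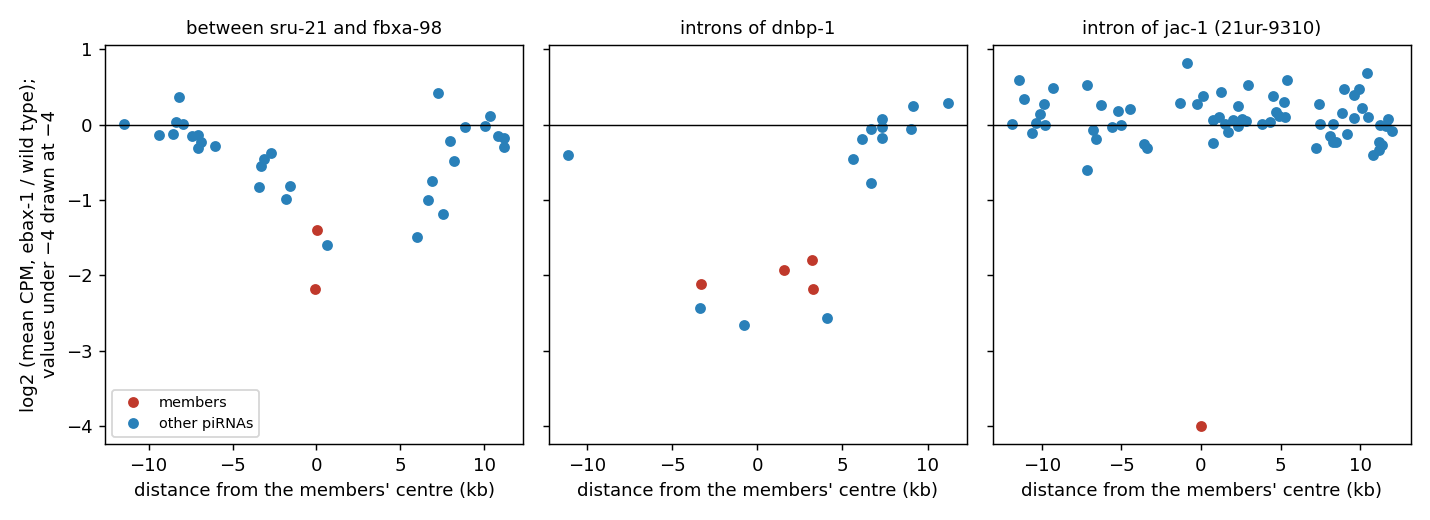
Log2 ratio of mean ebax-1 to mean wild-type CPM, for piRNAs with a wild-type mean of at least 5 CPM within 12 kb of the members at the 3 places outside the main cluster, by distance in kb from their centre. Near sru-21 the median ratios, before the log, are 0.749 at 1 to 8 kb from the pair and 0.949 at 8 to 12 kb. Values are low for the whole run of piRNAs in dnbp-1, and around 21ur-9310 (0 reads in ebax-1, drawn at -4) lie on both sides of 0.

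The last member, 21ur-9310, stood alone. It lies at IV:16002216-16002236 in an intron of jac-1, which codes for a p120 catenin-like protein of cell adhesion, on the strand of its host. It had 0 reads in both ebax-1 libraries, and 77 and 175 reads in the wild-type libraries, or 36.9 and 44.7 CPM. Against the floor of 3 reads over both ebax-1 libraries it was at least 61.9-fold lower in ebax-1, far beyond any other member. Because it had no reads in ebax-1, it did not enter the edgeR fit. The 29 other piRNAs within the limits and within 10 kb had ratios of 0.805 to 1.44 with a median of 1.06, so its neighbours were about level between genotypes. Reads were counted only where they matched a piRNA perfectly over its whole length.

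The group with the genotypes exchanged stayed empty. The piRNA nearest to entering it was 21ur-11034, at IV:14821276-14821296, with 23.8 and 37.7 CPM in ebax-1 adults and 11.5 and 13.5 CPM in wild-type adults. Its lower ebax-1 value was 1.76 times its higher wild-type value, and edgeR did not call it (adjusted p = 0.896). The count of 0 rests on having all 4 libraries: the rule on 3 of them gave 287 without ebax-1 replicate 1, 14 without ebax-1 replicate 2, 70 without wild-type replicate 2 and 3 without wild-type replicate 1. The same omissions gave 196, 381, 186 and 223 members. The main cluster lay at about the same place each time, with a left edge of 4800001 to 4840001 and a right edge of 5220000, and held 62.7 to 95.1% of them.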

How the data were processed

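The deposited piRNA table holds read counts, for which the authors trimmed adapters with cutadapt and matched reads perfectly to 15363 full-length piRNAs. miRNA counts, also deposited, gave marker and total levels. The authors tested piRNA counts with DESeq2. Its columns name strain and letter but no stage. Early embryos share those letters, and the columns were assigned to gravid adults from the study's description of its piRNA analysis. CPM are counts per 1000000 piRNA reads of a library. piRNAs were placed by name on the Ensembl 115 annotation of WBcel235 (15339 by a unique name, 24 through RefSeq, whose starts agreed for all 15363). The submitters' processing notes name the same build. Tests used edgeR 4.0.16 (TMM, quasi-likelihood F-test, Benjamini-Hochberg) in R 4.3.3 on piRNAs read at least once in each library, with DESeq2 1.42.0 as an alternative. The edgeR test was tested on simulated data, where it recovered 41 of 100 piRNAs lowered about 3-fold. It called 1 unchanged piRNA, with 12056 tested in all, the altered ones included. The altered piRNAs were drawn only from those with more reads, so this recovery does not apply to piRNAs of few reads. Both simulated genotypes had the same spread, and as many piRNAs were raised as lowered. The data differ in both, so these figures may not carry over to them. Depth limits precision: counting error alone is meant where reads are given, since PCR copies are not told apart.

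Named piRNAs were the 10 members of highest wild-type mean, the 5 of lowest ratio, 3 on each side of the limit, the first and last of the main cluster, up to 12 members outside it, up to 8 cluster piRNAs above the upper limit and the 5 within the limits nearest a ratio of 1. Others were named after their values were seen. The members, lists and rules were chosen with earlier results of these data known. piRNA sequences and upstream motifs were not analysed here.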

Additional observations from a re-analysis of the deposited data

How the results depend on the processing

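The count of members stayed between 121 and 190 with TMM-scaled CPM, lower limits of 5 and 20 CPM or no upper limit, and was 44 with a ratio limit of 1/3, at which no main cluster formed by the rule used. Leaving out 1 library gave 186 to 381 members, 3 to 287 in the exchanged group and a cluster share of 62.7 to 95.1%. A lower limit of 5 CPM gave 2 in the exchanged group and cut the cluster share to 34.2%, the joined windows then ending at position 5000000. The 42 piRNAs called lower by edgeR, and the 7 outside the level limits, became 79 and 6 with DESeq2, 57 and 5 with no filter, and 2 and 0 without TMM. Leaving out 1 library gave 0 to 390 lower, 0 to 106 higher and 0 to 26 outside the level limits, where a lone library is assumed to vary like the other group. With a replicate block, 1 piRNA was called lower and 0 outside the level limits. The numbers pair only 2 libraries each, and same-numbered libraries deviated with a correlation of -0.145 over 9151 piRNAs. A crossed pairing, added after seeing the data, called 29 lower, 0 higher and 3 outside the level limits in a block. The cause of these changes was not tested. Of 56 fitted piRNAs, those of the naming rule and those named later, none changed direction in the alternatives that fitted it. Many of them were members or were named for low ebax-1 values, so their direction was largely set by the choice and this is no test. The filter of 10 reads in every library left out 12 of them, and 21ur-9310, 21ur-6927 and 21ur-13885 had no fit. The planned searches for an upstream motif were not run, and low counts limit single piRNAs under about 10 CPM.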

Other observations

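Outside the places that held members, 1 window of 20 kb with at least 3 piRNAs within the limits stood lowest, IV:9120001-9140000, near nrfl-1, delm-1 and daf-10. Its 14 piRNAs summed to 240 and 330 CPM in ebax-1 adults, against 450 and 478 CPM in wild-type adults, a ratio of 0.614. The 9 with a wild-type mean of at least 10 CPM had ratios of 0.538 to 0.778, and edgeR called none of the window's piRNAs (smallest adjusted p 1.00).

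Besides 21ur-9310 and 21ur-6927, 21ur-13885 in fkh-7 was the third piRNA with 0 reads in both ebax-1 libraries and at least 30 in wild type, where it had 42 in all. It lies at IV:5604258-5604278, right of the main cluster, and was at least 10.3-fold lower in ebax-1 against the floor of 3 reads over both ebax-1 libraries. In the other direction, 0 piRNAs had at least 30 reads in ebax-1 and 0 in both wild-type libraries.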
